A study of Mus musculus with 15 samples.

Results

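The collagen genes of the mouse ovary were compared between HSD17B1-KI and WT females. They were taken as every row of the expression table whose symbol is Col, a number, the letter a and a number, which gave 44 of 27907 genes. By what is known of their chains, 11 were placed in the fibrillar class, 6 in the basement membrane class, 9 in the class of FACIT (collagens that sit on fibrils and have an interrupted helix) and 18 in a class of other collagens. Stranded mRNA libraries were made from whole ovaries of 7 HSD17B1-KI and 8 WT females, with a separate library for each. All mice were 6 months old and in estrus. HSD17B1-KI females were homozygous for the Ser143Ala change in Hsd17b1, which was introduced with CRISPR/Cas9 and inactivates the enzyme that turns estrone into estradiol. WT females came from the same breeding of heterozygous parents and served as controls. The change is in the germ line, so every cell of these ovaries carries it. The level of Hsd17b1 itself cannot check the labels, since a count of reads does not show a changed codon. Values are normalized counts, the reads of a gene divided by 1 size factor per library, and a mouse had between 26544745 and 72362981 reads on genes.

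Collagens are the main fibre-forming proteins of the extracellular matrix, and each molecule is a helix of 3 chains with a glycine at regular steps along each chain. Fibrillar collagens such as types I, III and V form the fibres of the ovarian stroma, of the outer layer of the follicle and of the ovarian capsule. The type IV chains form the sheet-like network of basement membranes, which separates the granulosa cells from the theca and lies under the endothelium. FACIT collagens decorate fibrils, and the other class holds the beaded filaments of type VI, short-chain networks, transmembrane collagens and the multiplexins, which lie near basement membranes.

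The classes differ in how long the glycine repeat runs without a break, and this can be read from the coding sequence. In the longest coding sequence of each gene in GENCODE release M21, runs of at least 5 triplets of codons that begin with a glycine codon (GG and any base) were counted. The longest run of the 11 fibrillar genes held between 216 and 344 triplets, with a median of 338. In the 6 type IV genes it held between 39 and 66, since their repeat was split into between 22 and 27 runs. The longest run was between 32 and 113 triplets in the FACIT class and between 23 and 87 in the other class, and the shortest of all 44 genes was that of Col26a1. The following 5 stretches of 30 codons show an unbroken fibrillar repeat in Col1a1 and Col3a1, the end of a run in Col4a1 and Col12a1, and the end of the short run in Col26a1, the member with the lowest p below. They are the spliced coding strand, 5′ to 3′, and capitals mark the GG of every glycine codon.
Col1a1, codons 675 to 704: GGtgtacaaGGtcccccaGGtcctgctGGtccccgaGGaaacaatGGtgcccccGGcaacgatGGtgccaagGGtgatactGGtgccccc
Col3a1, codons 680 to 709: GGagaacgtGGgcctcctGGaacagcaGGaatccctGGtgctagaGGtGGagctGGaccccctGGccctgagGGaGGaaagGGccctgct
Col4a1, codons 145 to 174: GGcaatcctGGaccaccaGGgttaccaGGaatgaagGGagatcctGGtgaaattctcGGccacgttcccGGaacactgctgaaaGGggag
Col12a1, codons 2883 to 2912: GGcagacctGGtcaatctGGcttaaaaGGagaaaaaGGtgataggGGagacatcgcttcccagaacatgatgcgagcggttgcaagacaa
Col26a1, codons 250 to 279: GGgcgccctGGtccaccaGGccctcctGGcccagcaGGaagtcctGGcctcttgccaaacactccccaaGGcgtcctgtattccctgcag

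On the GRCm38 assembly (mm10), these genes lie at chr11:94936224-94953042 on the plus strand (Col1a1), chr1:45311538-45349706 on the plus strand (Col3a1), chr8:11198423-11312826 on the minus strand (Col4a1), chr9:79598991-79718831 on the minus strand (Col12a1) and chr5:136741759-136883209 on the minus strand (Col26a1). The 6 type IV genes also share a layout, as they lie head to head in 3 pairs. The start of Col4a1 overlaps that of Col4a2 by 22 bases on chromosome 8, on opposite strands. The starts of Col4a4 and Col4a3 are 71 bases apart on chromosome 1, and those of Col4a6 and Col4a5 are 1308 bases apart on chromosome X. The bases between the Col4a4 and Col4a3 starts, at chr1:82586850-82586920 of GRCm38.p6, are shown because the genes are transcribed away from them on either side and their levels moved together across mice. They are given on the plus strand from the RefSeq promoter table, which held 35 of the 44 members.
Col4a4/Col4a3 gap: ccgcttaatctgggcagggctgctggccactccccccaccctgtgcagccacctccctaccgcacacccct

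Collagen transcripts made up a similar part of the ovarian libraries in both genotypes. Of all normalized counts, they took 0.627% ± 0.171 (SD) in the 7 HSD17B1-KI mice and 0.646% ± 0.139 in the 8 WT mice. The lowest, median and highest mouse were at 0.425%, 0.595% and 0.904% in HSD17B1-KI, and at 0.486%, 0.608% and 0.901% in WT. The ranges of the genotypes overlapped almost fully. Levels of different collagen genes were compared per kilobase of exon, as the union of all exons of a gene. On this scale, fibrillar genes held 34.4% ± 6.44 (SD) of the collagen total in HSD17B1-KI and 35.4% ± 4.86 in WT, and type IV genes 27.1% ± 1.68 and 28.0% ± 2.99. FACIT genes held 5.00% ± 1.11 in HSD17B1-KI and 5.18% ± 1.45 in WT, and the other class 33.5% ± 5.58 and 31.5% ± 5.20. No class share differed between the genotypes by more than the SD over mice. With the longest transcript in place of the exon union, the fibrillar share was 43.4% in HSD17B1-KI and 44.2% in WT, so the split between classes depends on the length used.

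A few chains carried most of this total. Over the 15 mice, the largest shares of the collagen total per kilobase were those of Col6a1 (16.5% ± 2.75, SD), Col4a1 (14.9% ± 1.72), Col3a1 (14.6% ± 4.12), Col4a2 (9.01% ± 1.07), Col1a2 (7.60% ± 0.70) and Col1a1 (6.97% ± 1.56), and these 6 genes together made up 69.5%. Col6a1, Col4a1 and Col3a1 did not differ beyond their spread over mice, nor did Col1a2 and Col1a1. Col6a2, Col6a4, Col5a1 and Col6a3 followed with between 4.21% and 2.27%. With the longest transcript as the length, Col3a1 was first with 19.2%, followed by Col1a2 and Col6a1 with 13.2% each. At the low end, Col9a1 was under the mean of 2 normalized counts set for testing and was counted at between 0 and 7.63 in each mouse. Col2a1, the main collagen of cartilage, and Col19a1 were between 1.08 and 12.5 normalized counts in every mouse.

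**Figure D1:**
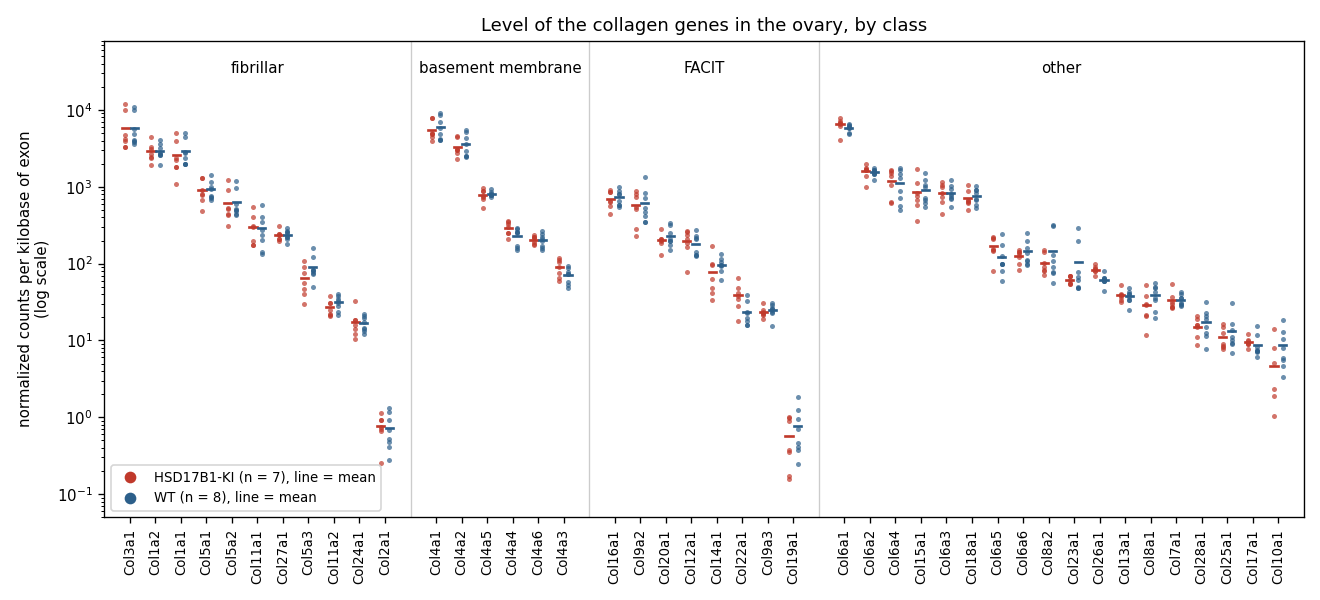
Normalized counts per kilobase of exon (log scale) for 43 collagen genes, ordered by mean level within each class. Points are mice (red, HSD17B1-KI, n = 7; blue, WT, n = 8), lines are means, a mouse at 0 (Col10a1 in HSD17B1-KI 1) is not drawn, and in every gene the points of the genotypes overlap.

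Whether collagen expression differed between the genotypes was tested with limma-trend on log2(normalized count + 1) over 21525 genes (mean of 2 normalized counts or more), with Benjamini-Hochberg adjustment, and genes with an adjusted p under 0.05 are called DE. The test included 43 of the 44 collagen genes. With limma-trend, 0 of 43 were DE, where 0.214% of all genes were, and with edgeR also 0 of 43, where 0.232% were. At an unadjusted edgeR p under 0.05 there were 3 of 43 (6.98%), against 11.7% of all genes. With DESeq2 on the recovered reads, 1 of 43 was DE, Col26a1, against 2.3% of all genes. At an unadjusted limma-trend p under 0.05 there were 4 of 43 (9.30%), 3 higher and 1 lower in HSD17B1-KI, against 10% of all genes, 5.36% higher and 4.64% lower. The share of collagen genes was thus close to that of all genes. The normalized counts of the genotypes overlapped for every one of the 43, while they were apart for 0.325% of all genes. The median log2 fold change of the 43 (HSD17B1-KI over WT) was -0.07, with 14 above 0 and 29 below, and that of all genes tested was -0.02, with 44.8% above 0. By class the median was -0.05 for fibrillar genes, -0.01 for type IV genes, -0.10 for FACIT genes and -0.09 for the others. The fibrillar and type IV medians did not keep their sign with 1 mouse left out, ranging from -0.17 to 0.03 and from -0.04 to 0.05. In whole ovaries, fewer cells of a type and less RNA per cell cannot be told apart.

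**Figure D2:**
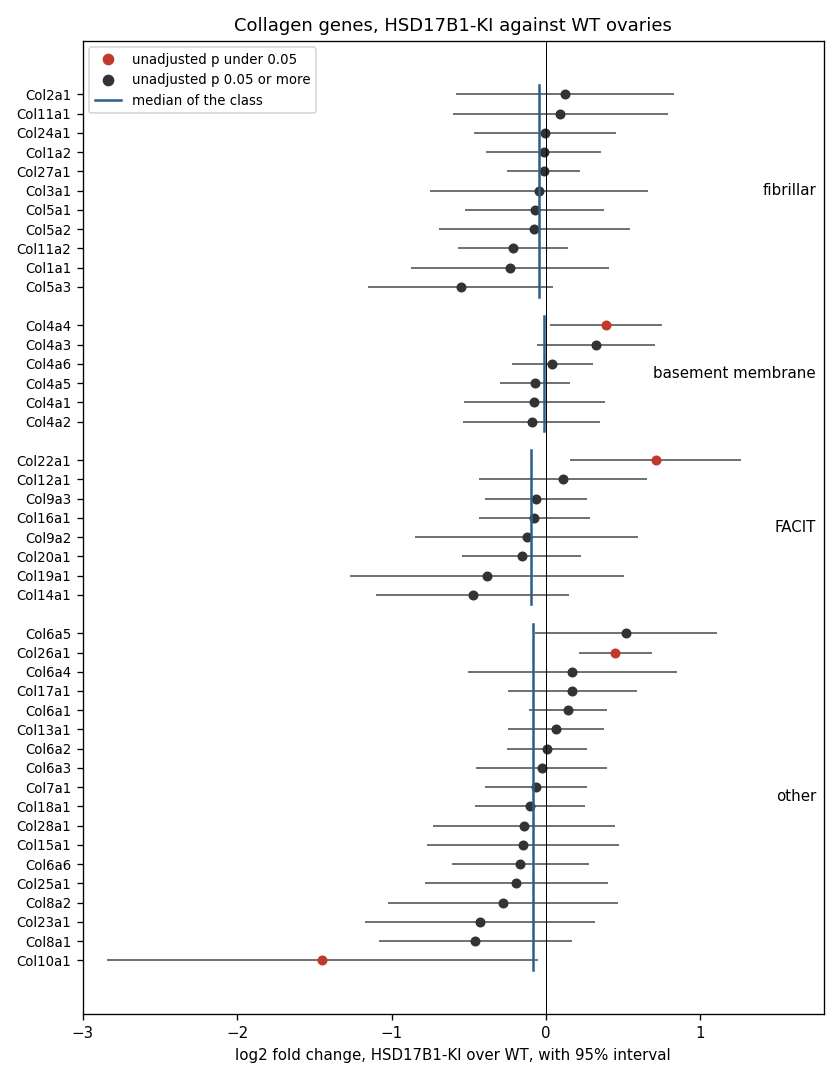
Log2 fold change of HSD17B1-KI over WT with its 95% interval from limma-trend for 43 collagen genes, by class. Red points had an unadjusted p under 0.05, blue lines are the class medians between -0.10 and -0.01, and the intervals of 39 genes include 0.

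Among the fibrillar genes, none of 11 had an unadjusted p under 0.05, against 10% of all genes. Col1a1 and Col1a2 encode the chains of type I collagen, the main collagen of most connective tissue. Col1a1 (ENSMUSG00000001506) was at 7225 in the lowest, 14611 in the median and 33319 in the highest HSD17B1-KI mouse, and at 12852, 16860 and 32596 in WT. Its log2 fold change was -0.23, with a 95% interval from -0.87 to 0.40. It was -0.42 without HSD17B1-KI 5 and -0.05 without HSD17B1-KI 6, and 0.19 with the smooth muscle score as covariate. Below the WT range lay 3 HSD17B1-KI mice and above it 1, so the groups overlapped widely. Col1a2 (ENSMUSG00000029661) had a narrower interval, from -0.38 to 0.35. Col3a1 (ENSMUSG00000026043), whose chains form type III fibrils together with type I, was at 31933, 40686 and 118261 in HSD17B1-KI and at 35878, 44025 and 108515 in WT. Its interval was from -0.74 to 0.65. With this spread between mice, a change of Col3a1 of any size within this interval remained possible. Col5a1 and Col5a2, the type V chains that start fibrils, had log2 fold changes of -0.07 and -0.07, and Col11a1, a type XI chain, had 0.09, the highest of the class among genes that averaged 10 normalized counts or more. Col5a3 had the lowest, -0.55 (95% interval from -1.15 to 0.04, adjusted p = 0.54 with limma-trend). Its levels were 201, 387 and 741 in HSD17B1-KI and 339, 551 and 1103 in WT, and the highest mouse was WT 1. Col11a2 was at -0.21.

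In the basement membrane class, 1 of 6 genes (16.7%), Col4a4, had an unadjusted p under 0.05, against 10% of all genes. Col4a1 and Col4a2, the chains of the network found in nearly all basement membranes, had log2 fold changes of -0.07 (95% interval from -0.52 to 0.38) and -0.09 (-0.53 to 0.34). Col4a1 (ENSMUSG00000031502) was at 29305, 36593 and 59293 in the lowest, median and highest HSD17B1-KI mouse, and at 30367, 39468 and 69189 in WT. Col4a3 and Col4a4, which form a more restricted network with Col4a5, lay on the other side of 0. Col4a4 (ENSMUSG00000067158) was at 2242, 3225 and 3764 in HSD17B1-KI and at 1596, 2688 and 3084 in WT. Its log2 fold change was 0.39 ± 0.17 (SE), with an unadjusted p of 0.033 and an adjusted p of 0.45 with limma-trend, and the exact permutation p was 0.054. Above the WT range lay 4 HSD17B1-KI mice, and WT 1, WT 3 and WT 6 lay between 1596 and 1792 while the other WT mice were at 2664 or more. Col4a3, read from the other side of the 71 bases shown above, was at 586, 901 and 1180 in HSD17B1-KI and at 484, 738 and 933 in WT, with a log2 fold change of 0.33 ± 0.18 and an adjusted p of 0.57 with limma-trend. Col4a5 and Col4a6 had log2 fold changes of -0.07 and 0.04.

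Of the FACIT genes, 1 of 8 tested (12.5%) had an unadjusted p under 0.05, against 10% of all genes. Col22a1 (ENSMUSG00000079022), which is known from tissue junctions such as that of muscle and tendon, was at 163, 350 and 601 in HSD17B1-KI and at 144, 194 and 360 in WT. Its log2 fold change was 0.71 ± 0.26 (SE), with an adjusted p of 0.34 with limma-trend and of 0.11 with DESeq2, and the exact permutation p was 0.026. The WT mean was exceeded by 6 of 7 HSD17B1-KI mice, and 3 lay above the WT range. Within each genotype, the highest pair of mice was HSD17B1-KI 4 and 5, and WT 3 and 6. Col14a1, which binds to the surface of fibrils, had the lowest log2 fold change of the class, -0.48 (95% interval from -1.09 to 0.14). Col9a2 and Col9a3, chains of type IX, had -0.12 and -0.07.

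In the other class, Col26a1 rose in HSD17B1-KI with DESeq2 but did not pass the limma-trend test. Col26a1 (ENSMUSG00000004415) encodes a short secreted collagen first described in testis and ovary, and it was 30th of 44 per kilobase of exon (72.1 normalized counts per kilobase) and 23rd with the longest transcript as the length (212). Its normalized counts were 559 in the lowest, 689 in the median and 802 in the highest HSD17B1-KI mouse, and 359, 504 and 649 in WT. The WT mean was exceeded by all 7 HSD17B1-KI mice and the highest WT mouse by 5, so the groups overlapped only through WT 4 and the 2 lowest HSD17B1-KI mice. The log2 fold change was 0.45 ± 0.11 (SE), with an adjusted p of 0.105 with limma-trend, 0.111 with edgeR and 0.0098 with DESeq2. Over the alternatives of limma-trend and the edgeR and DESeq2 fits of all mice, the adjusted p was between 0.0098 and 0.44. The exact permutation p was 0.0011. DESeq2 gave an adjusted p of 0.0087 without HSD17B1-KI 4, HSD17B1-KI 5, WT 3 and WT 6, and of 0.0499 without WT 1 and WT 8. With 1 mouse at a time left out, DESeq2 called Col26a1 in 15 of 15 fits.

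Of the chains of type VI, which form beaded filaments around cells, Col6a2 and Col6a3 lay closest to 0. Col6a1 (ENSMUSG00000001119) was at 18022, 29451 and 34576 in HSD17B1-KI and at 21484, 26091 and 28505 in WT, and its log2 fold change was 0.14 (95% interval from -0.10 to 0.39). Above the WT range lay 5 HSD17B1-KI mice, and below it lay HSD17B1-KI 6, without which the log2 fold change was 0.25 (adjusted p = 0.33 with limma-trend). Without HSD17B1-KI 7 it was 0.09. Col6a2 was at 0.01 and Col6a3 at -0.03, while Col6a4 was at 0.17 with a wide interval, from -0.50 to 0.84. Col6a5 had the highest log2 fold change of the class, 0.52 (95% interval from -0.06 to 1.10). Col10a1 (ENSMUSG00000039462), the collagen of hypertrophic cartilage, had the lowest of all members, -1.45 ± 0.65 (SE), at very low levels. It was at 0, 7.25 and 44.5 normalized counts in HSD17B1-KI and at 10.5, 22.0 and 58.2 in WT. The adjusted p was 0.48 with limma-trend and 0.55 with DESeq2, and the highest mice of the genotypes overlapped. The log2 fold change of Col10a1 was -0.92 without HSD17B1-KI 1, the mouse at 0, -0.90 with DESeq2 and -0.72 with an added count of 10. Col8a1 and Col8a2, which form networks under endothelium, had -0.46 and -0.28, and Col15a1, a multiplexin of vascular basement membranes, had -0.15. With 1 mouse left out, Col8a1 was between -0.62 and -0.26. Col8a2 was at -0.08 without WT 1 as well as without WT 8, and at 0.18 without both. Col15a1 was at -0.34 without HSD17B1-KI 5 and at 0.04 without HSD17B1-KI 6.

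**Figure D3:**
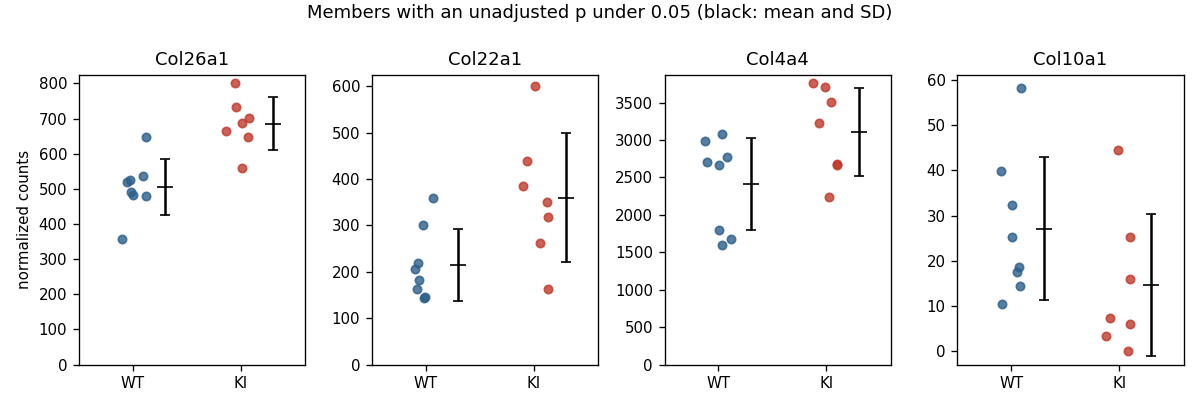
Normalized counts in each mouse (points) for Col26a1, Col22a1, Col4a4 and Col10a1, with the mean and SD of each genotype in black (WT, n = 8; KI, HSD17B1-KI, n = 7). In Col26a1, 5 of the 7 HSD17B1-KI mice sit above the highest WT mouse, at 649.

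Mice of both genotypes differed widely in several fibrillar and type IV genes. Col3a1 was at 97435 and 118261 in HSD17B1-KI 4 and 5 and at 97194 and 108515 in WT 3 and 6, while the other 11 mice were between 31933 and 54878. For 9 of 43 collagen genes (Col1a1, Col1a2, Col3a1, Col5a1, Col5a2, Col4a1, Col4a2, Col15a1 and Col16a1) these same mice were the 4 highest of 15, which was so for 4.28% of all genes tested. For Col6a4 alone among the collagen genes they were the 4 lowest, between 4272 and 5337 against between 6145 and 14981 in the others, as they were for 2.62% of all genes. The same mice were the 4 highest for 13 of 31 genes of collagen synthesis, among them Lox, which cross-links collagen, and Serpinh1, its chaperone. They were also the 4 highest for 5 of 20 genes of collagen breakdown, 5 of 27 matrix partners and 0 of 9 collagen receptors. These mice were also the 4 lowest for Cyp17a1, the androgen-forming enzyme of theca cells, with 224 and 254 in HSD17B1-KI 4 and 5 and 107 and 141 in WT 3 and 6, against 2033 or more in the others. The 4 summed theca markers were at 513983 and 444139 in HSD17B1-KI 4 and 5 and at 390267 and 353843 in WT 3 and 6, against between 186211 and 439206 in the others, but most of this sum was Cyp11a1 (mean 305298, against 18864 for Cyp17a1), which luteal cells also express. The 4 summed luteal markers did not set all of these mice apart, at 91429 and 125837 in HSD17B1-KI 4 and 5 and at 58639 and 53139 in WT 3 and 6, against between 13404 and 93067 in the others. The summed granulosa markers (6 of 6 measured) were lowest in the same mice, between 61955 and 81130 against between 82175 and 183124 in the others. Most of this sum was Inha (mean 95540, with Hsd17b1 next at 10146). Inha, Fshr and Hsd17b1 were lowest in HSD17B1-KI 4 and Cyp19a1 in WT 6, but Amh and Foxl2 were lowest in WT 8. Pdgfra, a receptor of stromal cells, was highest in HSD17B1-KI 4, HSD17B1-KI 5, WT 3 and WT 6, between 11231 and 15634 against between 5927 and 11134. The 6 summed stroma markers were highest in HSD17B1-KI 5, HSD17B1-KI 4 and WT 6, at 68002, 51349 and 50531. They did not set all of the same mice apart, with WT 3 at 41338, below WT 5 at 50479 and WT 1 at 47787. The part of cell makeup in the collagen levels of these mice was not tested. These mice are 2 of each genotype and were picked out after their values were seen, so they were not compared as a group.

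**Figure D4:**
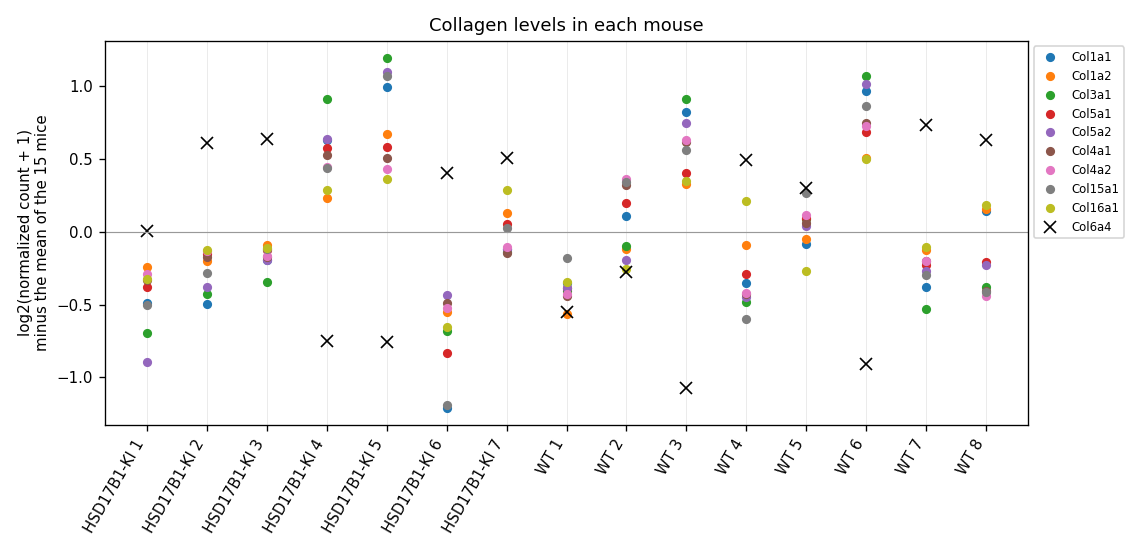
Deviation of log2(normalized count + 1) from the mean of the 15 mice, for the 9 collagen genes with the same 4 highest mice (coloured points) and for Col6a4 (crosses). HSD17B1-KI 4, HSD17B1-KI 5, WT 3 and WT 6 sit highest for the 9 genes and lowest for Col6a4.

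WT 1 and WT 8 were the 2 highest mice for 4 of 43 collagen genes (9.30%), Col23a1, Col28a1, Col5a3 and Col8a2, and for 10.9% of all genes, so the share of collagen genes was close to that of all genes. Col23a1, a transmembrane collagen chosen after its values were seen, was at 1672 in WT 1 and 1122 in WT 8 and between 276 and 448 in the other mice. Col8a2 was at 1388 and 1425 in these mice and between 251 and 678 in the others. WT 1 and WT 8 also had the highest Ovgp1, the secreted glycoprotein of the oviduct, with 203321 and 127890 against 14963 or fewer in the others. The 4 summed surface epithelium markers were highest in them too, at 18297 and 14714 against 12196 or fewer. Taken singly, Krt19 and Msln were highest in WT 1, but Upk3b was highest in HSD17B1-KI 5 and Lgals7 in WT 4. Krt19 reached 10572 in WT 1, a large part of the sum in that mouse. None of the 6 oviduct markers was DE, and their summed level was between 876 and 23850 in HSD17B1-KI and between 886 and 228609 in WT. The part of oviduct tissue or surface epithelium in these 4 collagen genes was not tested. Without WT 1 and WT 8, limma-trend called 0 of 43 collagen genes, with 2 at an unadjusted p under 0.05 (Col10a1 and Col26a1) against 8.84% of all genes, and DESeq2 called only Col26a1 (adjusted p = 0.0499), against 1.33% of all genes. Without HSD17B1-KI 4, HSD17B1-KI 5, WT 3 and WT 6, limma-trend called 0, with 7 at an unadjusted p under 0.05 against 12.5% of all genes, and DESeq2 called 3, Col22a1, Col26a1 and Col5a3, against 4.3% of all genes. DESeq2 also called Col22a1 beside Col26a1 without HSD17B1-KI 7, against 2.09% of all genes, and without WT 6, against 2.66%.

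Chains that can assemble into 1 molecule, and Col1a1 with Col3a1, whose molecules share fibrils, were compared across mice, in 11 pairs, on log2(normalized count + 1) with permutation tests, two-sided, adjusted over the pairs. Col4a1 and Col4a2 moved together most closely, with Pearson's r = 0.995 (p = 1e-05, the smallest that 100000 permutations give) and Spearman's rho = 0.986 (p = 1e-05) over 15 mice. Their ratio per kilobase was 1.65 ± 0.049 (SD), between 1.59 and 1.74, although the highest mouse was 2.36-fold above the lowest for Col4a1 and 2.39-fold for Col4a2. Within genotypes r was 0.995 (exact p = 0.00040) and 0.998 (exact p = 0.00012), and it was 0.992 without the 2 mice farthest from the median. For Col4a3 and Col4a4, r was 0.914 (permutation p = 1e-05) and rho 0.889 (p = 3e-05), and r was 0.887 without the 2 farthest mice, 0.940 within HSD17B1-KI and 0.901 within WT. Col4a5 and Col4a6, the head-to-head pair with the widest gap, gave r = 0.213 (permutation p = 0.45) and rho = 0.089 (p = 0.75). The difference between the 3 head-to-head pairs was not tested. Pairs of chains without a known relation were not compared, so whether a high r is particular to partners was not tested.

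Among the fibrillar chains, Col1a1 and Col1a2 had r = 0.912 (permutation p = 1e-05) and rho = 0.921 (p = 1e-05), and r = 0.856 without the 2 farthest mice. Within genotypes r was 0.971 in HSD17B1-KI and 0.866 in WT. Col5a1 and Col5a2 had r = 0.886 (permutation p = 5e-05) and rho = 0.932 (p = 1e-05), and r = 0.924 without the 2 farthest mice. Col1a1, Col1a2, Col5a1 and Col5a2 had the same 4 highest mice, as did Col3a1, Col4a1, Col4a2, Col15a1 and Col16a1. These mice were kept in the pairs of types I and V and in that of Col4a1 and Col4a2. Col3a1 fell into separate groups of mice, so it was compared with Col1a1 only over the 11 mice of the larger group, where r was 0.699 (permutation p = 0.015) and rho 0.809 (p = 0.0039). Without the 2 farthest of these mice, r was 0.843. Col6a1 and Col6a2 had r = 0.820 (permutation p = 0.00049) and rho = 0.614 (p = 0.016), but r was 0.536 (permutation p = 0.058) without HSD17B1-KI 6 and 7, so the relation rests on these mice. Within genotypes it was 0.963 in HSD17B1-KI and 0.488 in WT. The adjusted p of Pearson's r was 0.028 or lower for these 6 pairs and 0.058 or higher for Col6a1 with Col6a3 and the pairs Col4a5 and Col4a6, Col8a1 and Col8a2, Col9a2 and Col9a3, and Col11a1 and Col11a2. Col8a1 and Col8a2 were compared over 13 mice, since WT 1 and WT 8 stood apart.

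**Figure D5:**
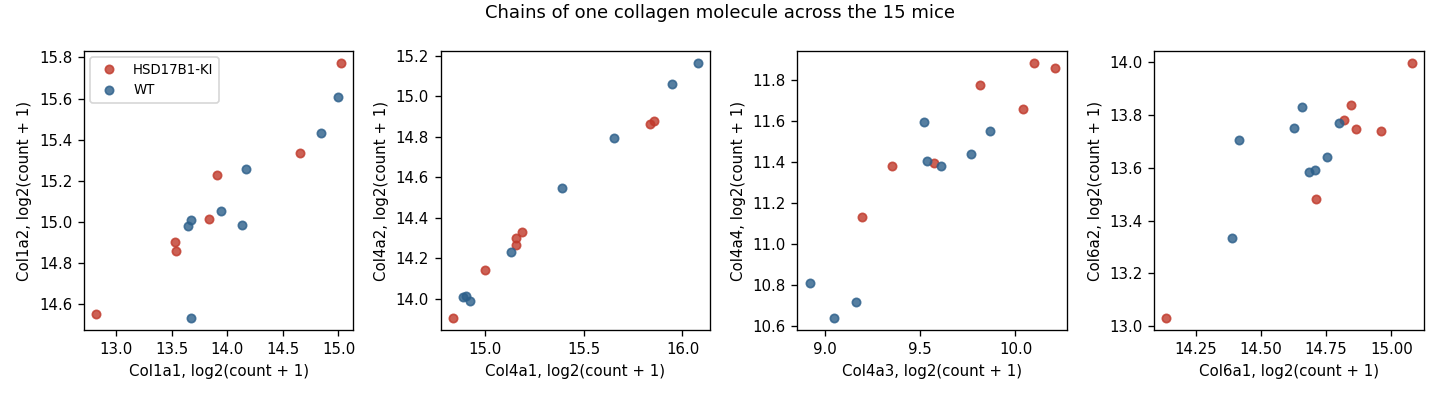
Each panel plots log2(normalized count + 1) of one chain against its partner in the 15 mice (red, HSD17B1-KI; blue, WT). Col4a1 and Col4a2 lie almost on a line (r = 0.995), and the mice of both genotypes lie along the same line.

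Genes that make, cut, bind or accompany collagen were read in the same fit, in which 10% of all genes had an unadjusted p under 0.05. Of 31 genes of collagen synthesis, which hydroxylate, fold, trim and cross-link the chains, none was DE and 1 had an unadjusted p under 0.05. This was Pcolce2, an enhancer of the trimming of procollagen, at 8.68, 28.6 and 56.0 in HSD17B1-KI and at 28.7, 35.8 and 74.7 in WT, with a log2 fold change of -0.76 (adjusted p = 0.48 with limma-trend). Colgalt2, which adds galactose to collagen, had the highest of the list, 0.29. The median log2 fold change of the list was -0.03.

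Of 20 genes of collagen breakdown, 1 (5%) was DE with limma-trend, against 0.214% of all genes, and 1 with DESeq2, against 2.3%. This was Ctsk, the cathepsin that cleaves the collagen helix. Ctsk was at 841 in the lowest, 977 in the median and 1123 in the highest HSD17B1-KI mouse, and at 502, 685 and 815 in WT. The lowest HSD17B1-KI mouse was thus above the highest WT mouse. The log2 fold change was 0.60 ± 0.11 (SE), with an adjusted p of 0.047 with limma-trend, 0.046 with edgeR and 0.00030 with DESeq2, and an exact permutation p of 0.00031. The limma-trend call was near the threshold, as 13 of 15 fits with 1 mouse left out lost it, all but those lacking HSD17B1-KI 5 or WT 6. The DESeq2 call held in 15 of 15. Over the alternatives of limma-trend and the edgeR and DESeq2 fits of all mice, the adjusted p was between 0.00030 and 0.37. DESeq2 gave an adjusted p of 0.00026 without HSD17B1-KI 4, HSD17B1-KI 5, WT 3 and WT 6, and of 0.0017 without WT 1 and WT 8. The 4 macrophage markers, which mark cells that can also carry Ctsk, had a median log2 fold change of 0.04, and their summed level was between 4116 and 8492 in HSD17B1-KI and between 4638 and 8608 in WT. The part of macrophages or of any other cell type in the level of Ctsk was not tested. Mmp13, a collagenase, was at 31.7, 58.3 and 105 in HSD17B1-KI and at 11.2, 31.9 and 59.4 in WT, with a log2 fold change of 0.86 (adjusted p = 0.41 with limma-trend). Mmp8, another collagenase, had the lowest log2 fold change, -1.48 (adjusted p = 0.65 with limma-trend and 0.20 with DESeq2). It was at 767 in WT 1 and 305 in WT 8 and between 1.04 and 22.1 in the other mice. DESeq2 called Mmp8 in 6 of 15 fits with 1 mouse left out, those lacking WT 2 to WT 7, while its DESeq2 log2 fold change was 0.06 without WT 1 and 0.07 without WT 8. The median log2 fold change of the list was 0.06.

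None of the 9 collagen receptors was DE. Itga10, an integrin chain, was at 274, 338 and 404 in HSD17B1-KI and at 304, 414 and 484 in WT, with a log2 fold change of -0.29 (adjusted p = 0.41 with limma-trend). Itga1 had the lowest of the list, -0.36, and Gp6, a platelet receptor with 11.1 normalized counts or fewer in every mouse, the highest, 0.94. The median of the receptors was -0.03. None of 27 matrix partners was DE, with a median of 0.00, and 5 (18.5%) had an unadjusted p under 0.05. Lama4 and Lamb1, laminin chains of basement membranes, had log2 fold changes of 0.34 (adjusted p = 0.19 with limma-trend) and 0.25 (0.38). For Lama4 the adjusted p was 0.055 with DESeq2, which called it in 3 of 15 fits with 1 mouse left out, those without HSD17B1-KI 1, HSD17B1-KI 5 and WT 7. Lama5, another laminin chain, had -0.56 (0.41), the proteoglycan agrin (Agrn) -0.29 (0.47) and periostin (Postn), which binds to fibrils, -0.80 (0.50). The levels of Lama4 were 5582, 7026 and 8228 in HSD17B1-KI and 3987, 5529 and 6515 in WT, and WT 1 was the lowest mouse. WT 1 was also the highest mouse for Lama5 and Agrn, and the lowest for Lamb1.

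Markers of other cell types were read beside the collagen genes, again against 10% of all genes at an unadjusted p under 0.05. All 6 smooth muscle markers had log2 fold changes below 0, with a median of -0.40, and 2 of 6 had an unadjusted p under 0.05. DESeq2 called Acta2, Cnn1 and Tagln, each lower in HSD17B1-KI, only in the fit without HSD17B1-KI 5. Their summed level was between 38613 and 82352 in HSD17B1-KI and between 46568 and 81056 in WT. The 6 stroma markers had a median of 0.00 and a summed level between 28847 and 68002 in HSD17B1-KI and between 34155 and 50531 in WT. Of these, 2 had an unadjusted p under 0.05, in opposite directions. Tcf21 had 0.32 (adjusted p = 0.21 with limma-trend and 0.081 with DESeq2), with all 7 HSD17B1-KI mice above the WT mean, and DESeq2 called it in 3 of 15 fits with 1 mouse left out, those without HSD17B1-KI 4, WT 5 and WT 7. Dpt had -0.86 (adjusted p = 0.50 with limma-trend). All 5 adipose markers had an unadjusted p under 0.05, 4 lower and 1 higher, and none was DE. Their median log2 fold change was -1.62, the farthest from 0 of the 11 marker lists, and Adipoq, the adipocyte hormone adiponectin, had -1.82 (adjusted p = 0.33 with limma-trend). Their summed level was 2306 in the lowest, 3574 in the median and 9312 in the highest HSD17B1-KI mouse, and 2478, 7831 and 10254 in WT. The median log2 fold change was 0.83 for 4 theca markers, 0.74 for 4 luteal markers, 0.33 for 6 granulosa markers, 0.06 for 4 oocyte markers, 0.04 for 6 endothelial markers, -0.26 for 4 markers of the surface epithelium and -0.82 for 6 oviduct markers. Of these lists, 2 of 4 theca markers, both higher, and 1 of 4 surface epithelium markers, lower, had an unadjusted p under 0.05. The luteal, granulosa, oocyte, endothelial and oviduct lists held none. None of the markers was DE with limma-trend, and DESeq2 called 1 of them (Insl3, a theca hormone), against 2.3% of all genes. The part of the markers in the collagen levels was not tested.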

How the data were processed

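Ovarian mRNA of 7 HSD17B1-KI and 8 WT mice was measured, 1 library per mouse. The authors demultiplexed the reads (bcl2fastq 2.20), removed adapters (Skewer), aligned the reads to mm10 with STAR 2.7.3 and deposited a table of normalized counts, a signal that is gene reads divided by size factors. The counting program and annotation are not given in the sources used here, and the paper names DESeq2 for its test. In 100% of the deposited values, dividing by the step of each library returned whole reads within 0.001, and these recovered reads were used for edgeR and DESeq2. The main test was limma-trend, since the table holds normalized values, and exact permutation tests of single genes ran over all 6435 splits of the mice, two-sided. Where nothing else is stated, an adjusted p was adjusted over all genes tested.

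The members, classes, 4 lists of collagen-related genes and 11 marker lists were chosen with earlier results of these data known. Named members were the 10 highest per kilobase, those with a p under 0.05 and the chains of the pairs. The highest and lowest log2 fold change of each class, among genes that averaged 10 normalized counts or more, were also named. Mice of a genotype were separate animals. Lengths, positions and coding sequences came from GENCODE M21. For genes with few reads, a log2 fold change with an added count of 1 can differ from that of the mean counts. In simulated data with 200 of 21525 genes changed 3-fold, the changed genes recovered were 172 for limma (5 false calls), 175 for edgeR (5) and 184 for DESeq2 (41). Changes under 3-fold were not simulated, so the recovery of changes as small as that of Col26a1 is not known. The tests ran in R 4.3.3 (edgeR 4.0.16, DESeq2 1.42.0 and limma 3.58.1), and other steps in Python 3.11.15 with pandas 2.3.3 and NumPy 2.4.6. Alternatives were leaving out each mouse, a replicate block, an oviduct or smooth muscle marker score as a covariate, quantile normalization or upper quartile scaling, array weights, another pseudocount (0.1 or 10), a filter at 10 or none, and a threshold of 0.1. Fits of DESeq2 without each mouse, fits without the mice that stood apart, and the comparison of chain pairs within the larger group of mice were chosen after seeing the data.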

Additional observations from a re-analysis of the deposited data

How the results depend on the processing

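With limma-trend, 0 collagen genes were DE under every alternative, including each fit without 1 mouse (0 to 0), except that DESeq2 called 1. With DESeq2, leaving out 1 mouse gave between 1 and 2, and leaving out HSD17B1-KI 4, HSD17B1-KI 5, WT 3 and WT 6 gave 3. In the breakdown list the 1 DE gene became 0 without a filter on low values, with quantile normalization, with the oviduct score or the smooth muscle score as covariate, with the replicate block, without WT 1 and WT 8 and without the 4 mice named above, and between 0 and 1 without each mouse. The cause was not tested. The fibrillar median was above 0 without HSD17B1-KI 1, HSD17B1-KI 6 or WT 6, and the type IV median without any 1 of HSD17B1-KI 1, HSD17B1-KI 6, WT 4, WT 5, WT 6 and WT 8. With the smooth muscle score as covariate they were 0.15 and 0.11. Of the 28 named members, none was DE with any limma-trend alternative. Leaving out 1 mouse moved the log2 fold change of 21 of them by over 1.5 times or turned its sign, all but Col11a2, Col22a1, Col26a1, Col4a3, Col4a4, Col5a3 and Col6a5, and 13 turned sign. Over all alternatives the sign of several members changed, for instance that of Col1a2 in 11 of 29 settings and that of Col3a1 in 9.

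With the longest transcript, the fibrillar share was 43.4% in HSD17B1-KI and 44.2% in WT and the type IV share 22.0% and 22.8%. With Col7a1, Col15a1 and Col18a1 added to the basement membrane class, that share was 31.2% and 32.4%. Without Col1a1, Col1a2 and Col3a1, collagen took 0.392% and 0.403% of counts. Leaving out each mouse in turn moved the collagen share between 0.580% and 0.660% in HSD17B1-KI and between 0.610% and 0.669% in WT. Within WT, r was 0.561 for Col1a1 and Col3a1 and 0.488 for Col6a1 and Col6a2. Over both genotypes without HSD17B1-KI 6 and HSD17B1-KI 7, r was 0.536 for Col6a1 and Col6a2. For Col6a1 and Col6a3, r was 0.582 for deviations from the genotype mean and 0.885 within HSD17B1-KI. For this pair r was -0.080 within WT, and 0.068 over both genotypes without HSD17B1-KI 6 and HSD17B1-KI 7.

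Equal replicate numbers did not pair mice, since correlations of deviations were between -0.55 and 0.55 and only number 1 correlated best with its own. With the replicate block 0 collagen genes were DE. Members with a mean under 10 normalized counts (Col9a1, Col2a1 and Col19a1) rest on few reads in each mouse.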
